A study of Mus musculus with 6 samples.

Results

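The genes of MHC class II antigen presentation were followed in Kupffer cells, which are the macrophages that reside in the liver, from Trem2-deficient mice and their wild-type littermates. The set held 10 of the 54532 genes in the deposited count table, matched by gene symbol, with no value used in the match: H2-Aa, H2-Ab1, H2-Eb1, H2-DMa, H2-DMb1, H2-DMb2, H2-Ob, Cd74, Ciita and Ctss. Of these, 7 lie on chromosome 17, which also carries Trem2, and 3 lie elsewhere. The Trem2 KO group (Trem2-/-) and the littermate WT group each held 3 libraries. All mice were male, entered the diet at 8 weeks of age and ate a high fat diet for 8 weeks, so both groups share the diet and neither has a counterpart on normal chow. Kupffer cells were sorted from the liver, and TruSeq libraries were made from Trizol-extracted total RNA. Neither the sort markers nor the part of Trem2 that the knockout removes are stated in the sources used here. Whether the 3 libraries of a group come from separate mice is also not stated in the labels. The p-values therefore measure the spread between libraries, which may be technical.

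MHC class II molecules are pairs of an alpha and a beta chain that show peptides from ingested material to CD4+ T cells. In the endoplasmic reticulum the invariant chain, encoded by Cd74, occupies their groove, and endosomal proteases such as cathepsin S (Ctss) trim it down until the DM heterodimer swaps the last fragment for a peptide, a step that the DO heterodimer restrains. Transcription of the chains, of Cd74 and of the DM genes depends on the coactivator CIITA, which is recruited by factors bound to a conserved promoter module with X and Y boxes. Kupffer cells carry class II at the surface, while B cells and dendritic cells are the other liver cells known for high levels.

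Total counts were 16347967 to 17135603 in Trem2 KO libraries and 15799351 to 15893041 in WT libraries. Trem2, the lipid-sensing receptor targeted here, stood at 16.6, 17.4 and 14.5 CPM in Trem2 KO libraries, against 84.8, 90.1 and 84.3 CPM in WT libraries, where CPM are read counts relative to library size with TMM scaling. Every Trem2 KO library was below every WT library (log2 change -2.42, SE 0.06, edgeR quasi-likelihood adjusted p = 1.68e-35). All 15 resident Kupffer cell markers were detected, and Clec4f, a lectin specific to these cells, averaged 11197 ± 159 CPM in Trem2 KO and 12329 ± 334 CPM in WT libraries (SD, n = 3 each). Expression differences were widespread: 4182 of 13776 tested genes were called (Benjamini-Hochberg adjusted p below 0.05), 2103 higher and 2079 lower in Trem2 KO. With total counts in place of TMM scaling the split was 2517 higher and 1588 lower. The median absolute log2 change of called genes was 0.27.

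Most class II presentation genes were lower in Trem2 KO Kupffer cells. All 10 genes passed the filter on low counts. Of them 9 were called, against 30.4% of all tested genes, and all 9 were lower, a call made for 15.1% of all tested genes. In the same 9 genes every Trem2 KO library was below every WT library, which held for 20.7% of all tested genes. The exception was H2-DMb2, which was not called. Lower calls were more frequent among abundant genes, with 134 of the 261 genes that average at least 500 CPM in WT. H2-Aa, H2-Ab1, H2-Eb1, Cd74 and Ctss belong to that class. The 10 genes were chosen with earlier results of these data known, so these shares describe them and are not a test. Log2 changes, Trem2 KO over WT, ran from -0.92 to 0.20 with a median of -0.55, against a median of -0.01 over all tested genes. The 10 genes together took 0.868%, 0.868% and 0.877% of all reads in Trem2 KO libraries, against 1.26%, 1.29% and 1.23% in WT libraries. In bulk RNA, fewer cells carrying these transcripts and less of them per cell cannot be told apart.

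**Figure D1:**
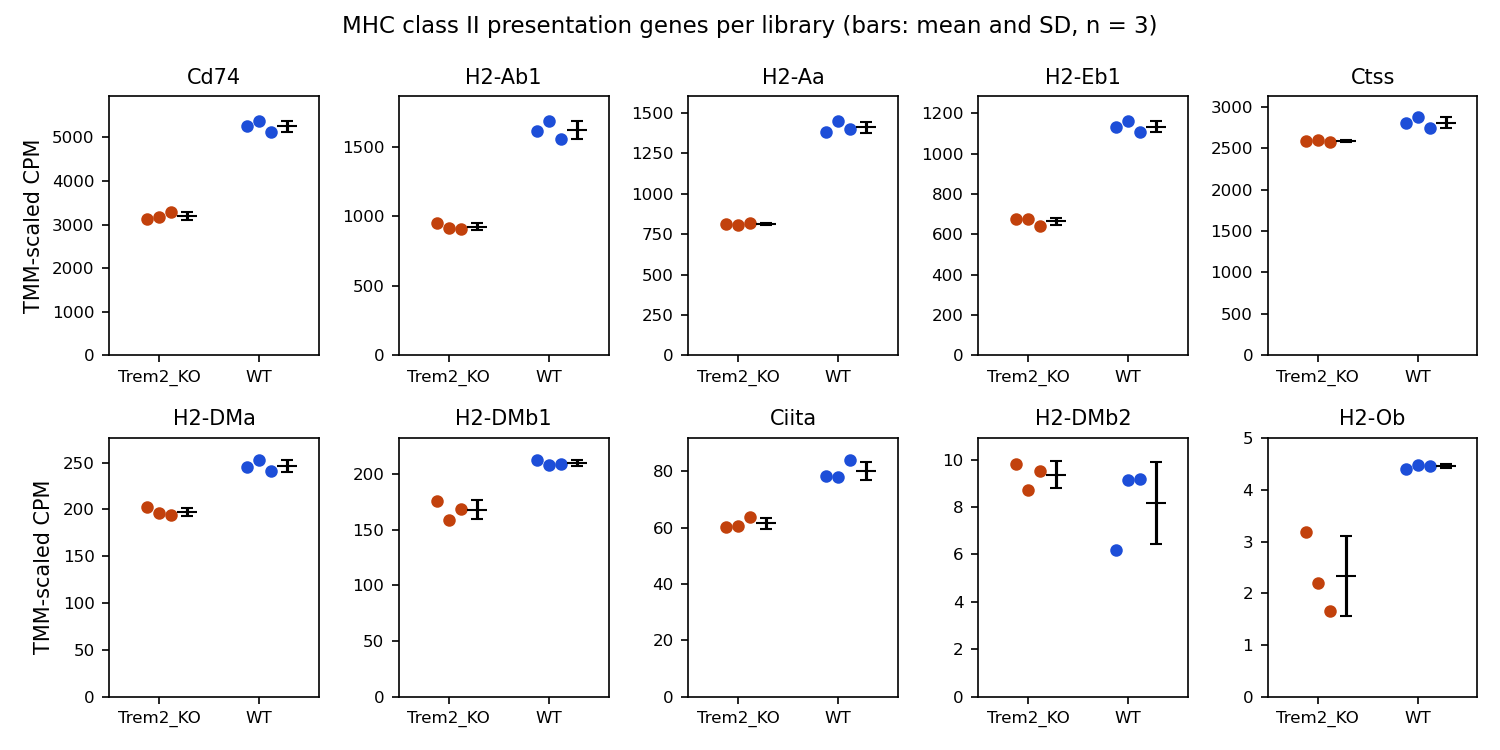
TMM-scaled CPM of each class II presentation gene in the 3 Trem2 KO libraries (left, orange) and the 3 WT libraries (right, blue), with mean and SD beside the points; each panel has its own linear axis from 0. The groups are separate in every panel but that of H2-DMb2, where the Trem2 KO libraries lie at 8.74 to 9.83 CPM and the WT libraries at 6.19 to 9.2 CPM.

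The classical chains showed large decreases of similar size. H2-Aa encodes the alpha chain of I-A (ENSMUSG00000036594, chromosome 17, 34282744 to 34287827, minus strand, GRCm38). It stood at 815, 805 and 819 CPM in Trem2 KO libraries, against 1383, 1451 and 1398 CPM in WT libraries. The groups lay far apart, with Trem2 KO 42.4% lower (log2 change -0.80, SE 0.03, edgeR adjusted p = 7.96e-32). H2-Ab1, the I-A beta chain (ENSMUSG00000073421, chromosome 17, 34263209 to 34269418, plus strand), stood at 953, 915 and 911 CPM in Trem2 KO libraries, against 1614, 1686 and 1558 CPM in WT libraries. It was 42.8% lower in Trem2 KO (log2 change -0.81, SE 0.03, edgeR adjusted p = 4.22e-30), again with no overlap. H2-Eb1, the beta chain of I-E (ENSMUSG00000060586, chromosome 17, 34305877 to 34316199, plus strand), stood at 675, 675 and 642 CPM in Trem2 KO libraries, against 1131, 1162 and 1109 CPM in WT libraries. It was 41.5% lower (log2 change -0.77, SE 0.03, edgeR adjusted p = 2.31e-30), and its groups did not overlap either.

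These decreases were large for the data set. A log2 change as low as that of H2-Eb1 or lower was seen in 1.6% of all tested genes and in 7.26% of the genes called lower. Among 261 abundant genes, those with a WT mean of at least 500 CPM, 134 were called lower. Among those 134, H2-Ab1, H2-Aa and H2-Eb1 ranked 2, 3 and 4 by the size of the fall. In the ranking of all genes by CPM, H2-Ab1 stood at 107 in Trem2 KO and 55 in WT. H2-Aa stood at 125 in Trem2 KO and 64 in WT, and H2-Eb1 at 175 in Trem2 KO and 83 in WT. The I-E alpha chain gene, listed as H2-Ea-ps, held 0 counts in every library, and the further beta gene H2-Eb2 held 0 to 9 counts per library. A count of 0 allows up to 0.175 to 0.19 CPM in these libraries, counting error only.

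The peptide exchange genes lie on the same stretch of chromosome 17, and 3 of the 4 tested were called lower. H2-DMa, the DM alpha chain (ENSMUSG00000037649, 34135182 to 34139101, plus strand), stood at 202, 196 and 194 CPM in Trem2 KO libraries, against 245, 253 and 241 CPM in WT libraries. H2-DMb1, a DM beta chain (ENSMUSG00000079547, 34153072 to 34160230, plus strand), stood at 176, 159 and 169 CPM in Trem2 KO libraries, against 213, 208 and 209 CPM in WT libraries. Neither gene's groups overlapped, and both were 20% lower in Trem2 KO, each with a log2 change of -0.32 (SE 0.03 for H2-DMa and 0.04 for H2-DMb1). Their edgeR adjusted p-values were 2.31e-11 for H2-DMa and 2.29e-10 for H2-DMb1. The 95% interval of the log2 change, -0.39 to -0.25 for each, lies above those of the classical chains, the lowest of which begins at -0.86 and the highest of which ends at -0.72. A log2 change as low as that of H2-DMa or lower was seen in 9.59% of all tested genes.

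H2-DMb2, the second DM beta chain gene (ENSMUSG00000037548, 34143307 to 34151553, plus strand), was read at 9.83, 8.74 and 9.53 CPM in Trem2 KO libraries, against 6.19, 9.14 and 9.2 CPM in WT libraries. The groups overlapped, and the low WT value came from WT replicate 1 alone. The log2 change was 0.20 (95% interval -0.07 to 0.46, edgeR adjusted p = 0.287), and 0.03 without WT replicate 1. The data thus allow a fold of 0.951 to 1.38. Of the 50-base windows in H2-DMb1 transcripts, 27.2% also occur in H2-DMb2, and 29.5% of those of H2-DMb2 occur in another gene, so reads of the DM beta genes may be split between them and these values are uncertain. None of the other 8 genes shared such a window with any gene.

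H2-Ob, the beta chain of DO (ENSMUSG00000041538, 34238903 to 34245907, plus strand), was the least abundant of the 10. It was read 55, 36 and 28 times in Trem2 KO libraries, against 69, 70 and 70 times in WT libraries, or at 3.18, 2.19 and 1.65 CPM in Trem2 KO, against 4.41, 4.48 and 4.47 CPM in WT. The WT libraries were nearly equal, while the Trem2 KO libraries spread over a range of 1.65 to 3.18 CPM. The log2 change was -0.92 with a wide 95% interval of -1.35 to -0.50 (edgeR adjusted p = 0.000549), which spans the changes of the classical chains. On the log2(FPKM + 1) scale, which understates changes of low genes, it was -0.48. H2-Oa, the DO alpha chain, was below the filter with 2 to 7 counts per library.

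The promoter module named above was looked for in the 250 bases before each RefSeq transcript start (GRCm38.p6), since several of these genes were lower together. The letters CTNNNAAC stood for the X box and TGATTGG for the Y box, with 20 to 40 bases between them, and both strands were searched. The letters were chosen after the sequences had been read. H2-Ab1, Cd74 and Ciita were not among the 7 class II presentation genes matched in the promoter table, so the search does not cover them. Of those 7, 5 held such a pair, each on the gene's own strand. The stretch is shown for each, with the X and Y letters in capitals.
H2-Aa, chr17:34287861-34287913, minus strand: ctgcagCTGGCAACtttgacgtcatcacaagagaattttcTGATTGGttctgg
H2-Eb1, chr17:34305767-34305818, plus strand: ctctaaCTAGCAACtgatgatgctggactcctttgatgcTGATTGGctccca
H2-Ob, chr17:34238809-34238858, plus strand: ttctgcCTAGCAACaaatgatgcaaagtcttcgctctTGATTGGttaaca
H2-DMb2, chr17:34145117-34145169, plus strand: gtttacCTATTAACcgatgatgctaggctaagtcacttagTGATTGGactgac
H2-DMb1, chr17:34153094-34153123, plus strand, X box and the bases after it: CTAGTAACtgatgatgctaggctgattcac
The spacing between the boxes was 26 bases in H2-Aa, H2-DMb1 and H2-DMb2, 25 in H2-Eb1 and 23 in H2-Ob. Of 32851 promoter windows of all genes, 35.7% held the X letters, 7.23% the Y letters and 43 (0.131%) the spaced pair on either strand. A pair was present in H2-DMb2, which was not called, as well as in the 4 others, which were lower in Trem2 KO. The window of Ctss held no pair in these letters. The 2 RefSeq windows listed for H2-DMa, ending at 34122831 and 34125517, held none either. They lie upstream of the gene start in the deposited table (34135182) and so do not show the bases before that start. The stretches of H2-DMb1 and H2-DMb2 lie past their deposited gene starts (34153072 and 34143307). They do not show the bases before those starts either. Among other tested genes, 13 held the pair on either strand. Of those, 2 were called lower and 0 higher, against 15.1% lower and 15.3% higher over all tested genes.

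The invariant chain gene fell in nearly the same measure as the chains it binds. Cd74 (ENSMUSG00000024610, chromosome 18, 60803848 to 60812646, plus strand) stood at 3126, 3184 and 3296 CPM in Trem2 KO libraries, against 5260, 5383 and 5124 CPM in WT libraries. Every Trem2 KO library was far below every WT library. The gene was 39.1% lower in Trem2 KO (log2 change -0.71, SE 0.02, 95% interval -0.76 to -0.67, edgeR adjusted p = 1.39e-31). Cd74 stood at rank 21 of all genes by CPM in Trem2 KO and 10 in WT. It ranked 5 by the size of the fall among the 134 abundant genes called lower. H2-Aa, H2-Ab1, H2-Eb1 and Cd74 together took 0.562% to 0.572% of reads in Trem2 KO libraries and 0.909% to 0.953% in WT libraries.

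Ctss encodes cathepsin S, the protease that cuts the invariant chain in professional antigen-presenting cells (ENSMUSG00000038642, chromosome 3, 95526786 to 95556403, plus strand). It stood at 2581, 2604 and 2576 CPM in Trem2 KO libraries, against 2803, 2877 and 2744 CPM in WT libraries. The groups did not overlap, but the difference was small, 7.85% lower in Trem2 KO (log2 change -0.12, 95% interval -0.16 to -0.07, edgeR adjusted p = 5.07e-05). Its size was below the median absolute change of called genes. Of the 134 abundant genes called lower, 100 fell by more, which put Ctss at rank 101. Its rank by CPM was 26 in both groups.

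Ciita, the class II coactivator (ENSMUSG00000022504, chromosome 16, 10480059 to 10528418, plus strand), stood at 60.3, 60.5 and 63.6 CPM in Trem2 KO libraries, against 78.5, 78.1 and 83.9 CPM in WT libraries. It was 23.3% lower in Trem2 KO with no overlap of the groups (log2 change -0.38, 95% interval -0.48 to -0.28, edgeR adjusted p = 1.03e-08). Its fall was thus smaller than those of H2-Aa, H2-Ab1, H2-Eb1 and Cd74, whose intervals end at or below -0.67. Ciita overlaps Dexi on the other strand, which held 1254 reads over the 6 libraries against 6883 for Ciita, and the sources used here do not give the strand setting of the counting. Cd74 overlaps the miRNA gene Mir5107 and Ctss the pseudogene Hmgb1-ps5, with 238 reads against 409285 and 251 against 263153.

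Genes on chromosome 17 were set beside those elsewhere, because Trem2 lies on that chromosome, 14 to 14.2 Mb from the class II genes, and DNA of the targeted strain can stay linked to a knockout allele. Of the 7 genes on chromosome 17, 6 were called lower, with a median log2 change of -0.77 and a range of -0.92 to 0.20. Of the 3 genes on chromosomes 3, 16 and 18, 3 were called lower, with a median of -0.38 and a range of -0.71 to -0.12. The ranges overlap: Cd74, on chromosome 18, fell by more than H2-DMa and H2-DMb1 on chromosome 17 and by nearly as much as the classical chains. With the 5 chromosome 17 genes that average at least 10 CPM in WT, 5 were called lower and the median was again -0.77. These medians describe few genes and carry no test.

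**Figure D2:**
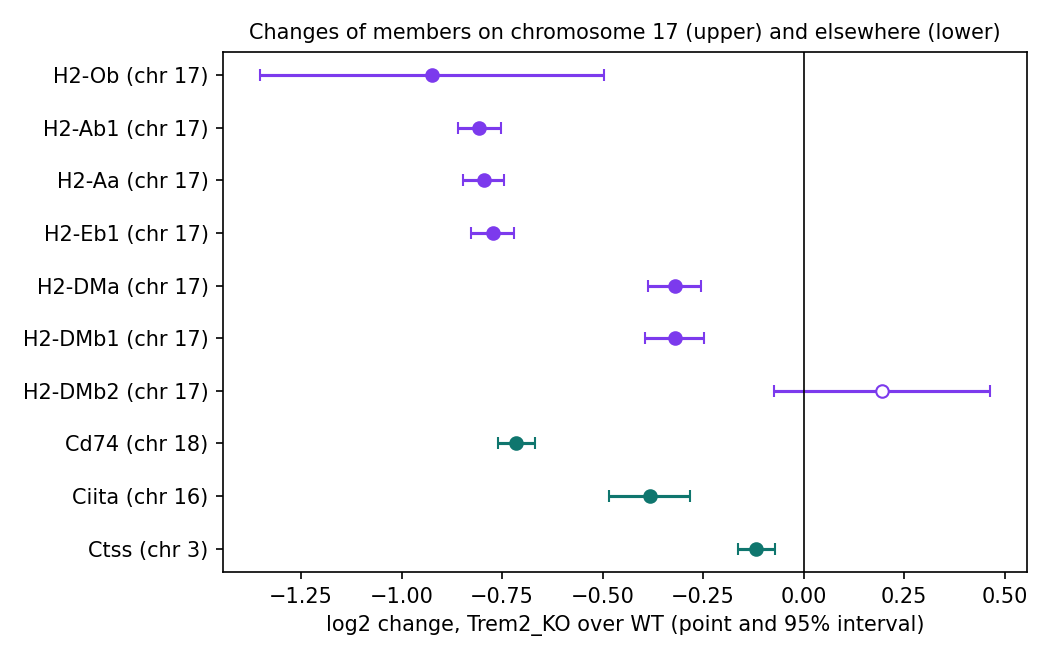
Log2 change, Trem2 KO over WT, of each class II presentation gene with its 95% interval, genes on chromosome 17 above (purple) and the others below (green); filled points were called and the open point was not. Cd74 at -0.71 stands near H2-Eb1 at -0.77, while H2-DMa and H2-DMb1 at -0.32 stand near Ciita at -0.38.

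Between the outermost class II genes, over 181 kb of chromosome 17 (34135182 to 34316199), lie 4 other tested genes, whose products cut or transport peptides for MHC class I. All 4 were called lower in Trem2 KO, with a median log2 change of -0.36. The immunoproteasome subunit Psmb9 averaged 79.2 ± 3.45 CPM in Trem2 KO and 102 ± 2.83 CPM in WT (SD, n = 3 each), a log2 change of -0.37 (edgeR adjusted p = 3.02e-09). The subunit Psmb8 changed by -0.40, and the peptide transporter genes Tap1 and Tap2 by -0.35 and -0.25. With 0.5 Mb added on each side, 15 of 47 tested genes (31.9%) were called lower and 6 (12.8%) higher, with a median of -0.09. Over the whole of chromosome 17 without the class II genes, 120 of 691 tested genes (17.4%) were called lower and 113 (16.4%) higher, against 14.9% lower and 15.2% higher on the other chromosomes. At the same distances on the other side of Trem2 no tested gene lies, and with the 0.5 Mb margins there was 1, so that side gives no comparison. Linkage to the Trem2 allele and an effect of the missing receptor cannot be told apart for genes near Trem2 with these libraries.

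**Figure D3:**
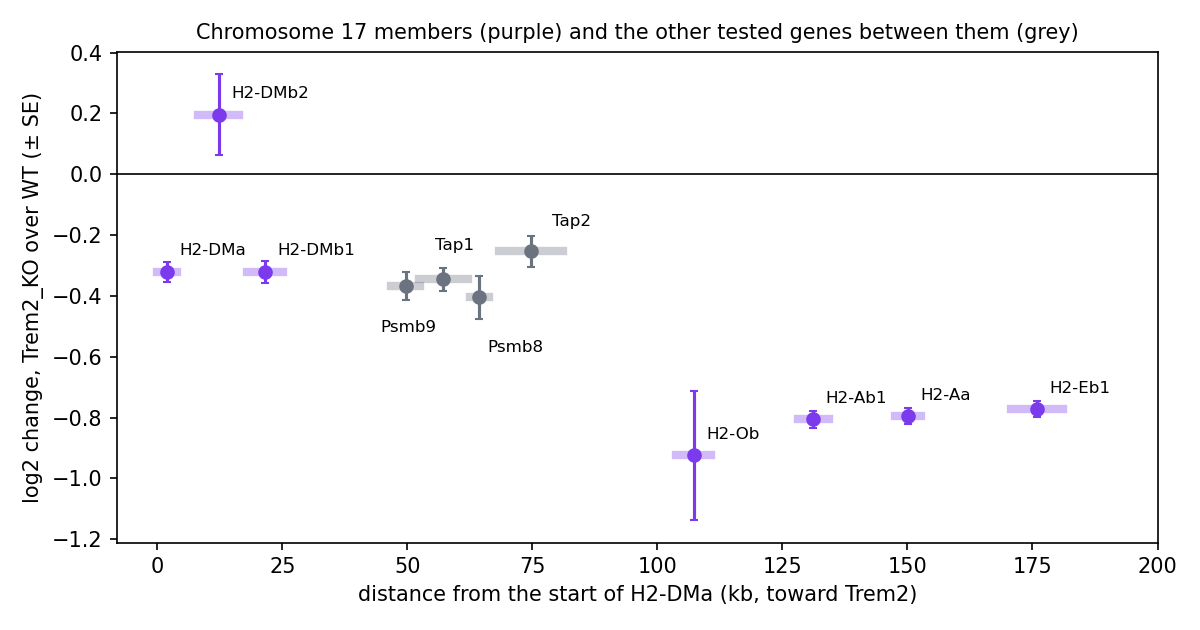
Log2 change, Trem2 KO over WT, with its SE against distance from the start of H2-DMa for the 7 chromosome 17 class II genes (purple) and the 4 other tested genes among them (grey); shaded bars mark gene lengths. H2-DMa, H2-DMb1 and the 4 grey genes lie between -0.40 and -0.25, while H2-Ob, H2-Ab1, H2-Aa and H2-Eb1, at the end nearer Trem2, lie between -0.92 and -0.77. H2-DMb2, which was not called, lies between H2-DMa and H2-DMb1 in position and at 0.20. The interval is 14 to 14.2 Mb from Trem2, and a trend along it was not tested.

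Levels were compared between genes per transcript length, as the deposited FPKM. In WT libraries Cd74 was highest at 3710 ± 93.5 FPKM, followed by Ctss at 2058 ± 50 FPKM (SD, n = 3). H2-Ab1 and H2-Eb1 followed at 985 ± 39.3 and 954 ± 22.9 FPKM, with libraries that overlapped, and then H2-Aa at 749 ± 18.8 FPKM. H2-DMa and H2-DMb1 stood at 149 ± 3.62 and 141 ± 1.91 FPKM, Ciita at 8.37 ± 0.328, H2-DMb2 at 4.76 ± 0.998 and H2-Ob at 1.41 ± 0.0113 FPKM. The order of the means was the same in Trem2 KO libraries, where Cd74 and Ctss stood much closer, at 2257 ± 62 and 1893 ± 11.5 FPKM. H2-Ab1 and H2-Eb1 overlapped in Trem2 KO too, at 562 ± 13.7 and 557 ± 15.7 FPKM, as did H2-DMa at 119 ± 2.37 and H2-DMb1 at 112 ± 5.57 FPKM.

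Ratios within a library do not depend on scaling between libraries, and 4 of them were compared with exact two-sided permutation tests over libraries, in which 0.1 is the smallest p that 3 against 3 can give. The ratio of H2-Ab1 to H2-Aa, beta to alpha chain of I-A, was 1.34, 1.3 and 1.27 in Trem2 KO libraries and 1.34, 1.33 and 1.28 in WT libraries. These values overlapped closely (log2 difference -0.01, exact p = 0.8). The ratio of Cd74 to the sum of H2-Aa and H2-Ab1 was 2.18, 2.29 and 2.35 in Trem2 KO libraries and 2.16, 2.12 and 2.14 in WT libraries, a log2 difference of 0.09 with no overlap. The ratio of H2-DMa to H2-Aa was 0.283, 0.279 and 0.27 in Trem2 KO libraries, against 0.203, 0.199 and 0.197 in WT libraries (log2 difference 0.47). The ratio of Ctss to Cd74 was 0.857, 0.849 and 0.811 in Trem2 KO libraries, against 0.553, 0.555 and 0.556 in WT libraries (log2 difference 0.60). For these last 3 ratios every Trem2 KO library exceeded every WT library, with an exact p of 0.1 and a Benjamini-Hochberg value of 0.133 over the 4 tests, so none could pass 0.05.

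**Figure D4:**
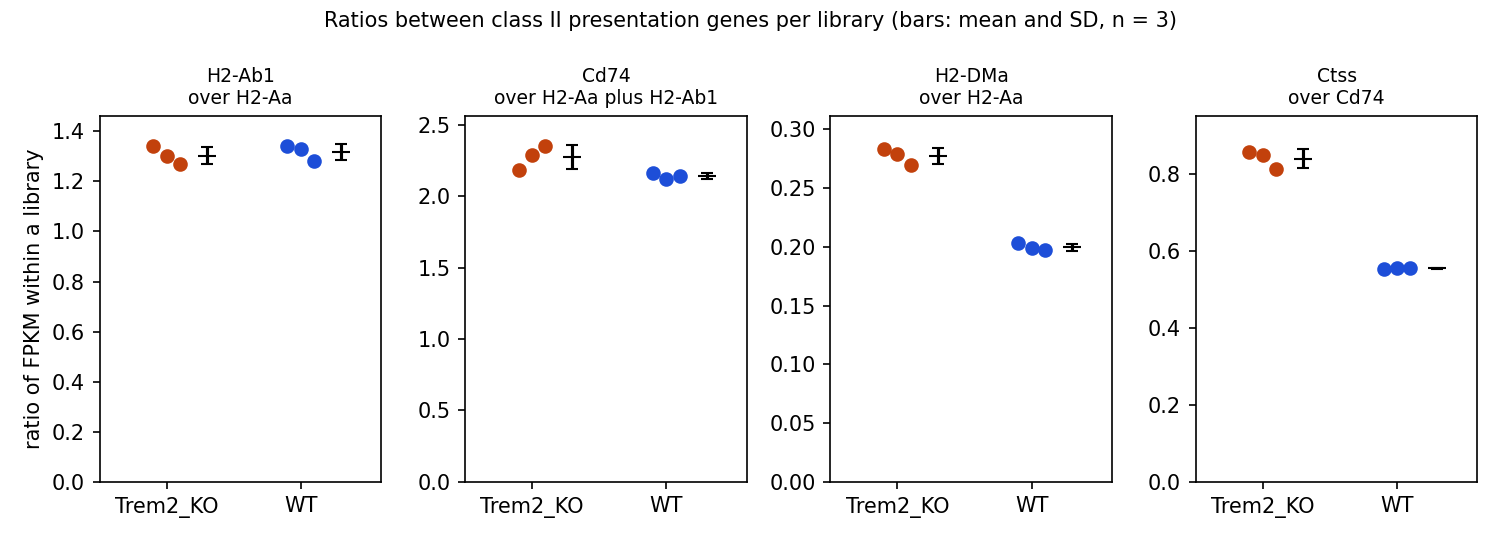
Ratio of FPKM between class II presentation genes within each library, for 3 Trem2 KO libraries (left, orange) and 3 WT libraries (right, blue), with mean and SD; axes start at 0. H2-Ab1 over H2-Aa averages 1.3 in Trem2 KO and 1.31 in WT, while Ctss over Cd74 averages 0.839 in Trem2 KO and 0.555 in WT.

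The rest of the pathway was read from lists of 50 tested genes other than the 10. Of these, 16 were called lower and 8 higher in Trem2 KO, against 15.1% lower and 15.3% higher over all tested genes. Without Trem2 KO replicate 2 the number called higher was 5, and with total counts in place of TMM scaling 15 were called lower and 13 higher. Of 9 further genes that process the invariant chain or its cargo, 7 were called lower, by small amounts, and the list's median was -0.10. The thiol reductase Ifi30 changed by -0.18, the cathepsins Ctsh and Ctsz by -0.16 and -0.15, the legumain gene Lgmn by -0.14 and the cystatin Cst3, a cathepsin inhibitor, by -0.10 on the log2 scale. Cathepsin L (Ctsl), which cuts the invariant chain in thymic epithelium, and Sppl2a, the protease that removes its last membrane stub, were the 2 not called, with log2 changes of 0.04 and -0.01.

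Regulators of class II transcription went in both directions, with 5 of 21 called lower and 4 higher, counts near the background of 15.1% lower and 15.3% higher, and a median of -0.07. The interferon regulatory factor Irf1 stood at 172, 163 and 163 CPM in Trem2 KO libraries, against 193, 201 and 191 CPM in WT libraries. Its groups did not overlap (log2 change -0.23, SE 0.04, edgeR adjusted p = 6.11e-07). Irf4, a related factor, changed by -0.52, the deacetylase Hdac2 by -0.23 and the acetyltransferase Ep300 by 0.23, all called. The factors that bind the X box, Rfx5, Rfxap and Rfxank, were at 0.10, -0.15 and -0.15 and were not called.

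Genes that act on class II at the membrane went in both directions. The ubiquitin ligase gene March1, whose product sends surface class II for degradation, averaged 282 ± 6.55 CPM in Trem2 KO and 230 ± 2.15 CPM in WT (SD, n = 3 each), a log2 change of 0.29 (edgeR adjusted p = 9.16e-11). The tetraspanin gene Cd9 stood at 20.3, 18.6 and 20.7 CPM in Trem2 KO libraries, against 5.43, 5.63 and 4.73 CPM in WT libraries, with the groups far apart (log2 change 1.92, SE 0.12, edgeR adjusted p = 7.69e-20). The tetraspanins Cd37 and Cd82 were called lower, at -0.26 and -0.23. In all, 2 of 7 such genes were called higher and 2 lower, with a median of 0.01. For this list and those below, the shares over all tested genes were 15.3% higher and 15.1% lower. Of 4 genes for the MIF ligand of surface CD74 and its co-receptors, the receptor gene Cxcr4 was called, higher at 0.74. Of 9 costimulation genes, 2 were called lower, Cd40 (-0.38) and Cd86 (-0.18), and 1 higher, the checkpoint gene Vsir (0.10), with a median of 0.05. Vsir lost its call without Trem2 KO replicate 2 or WT replicate 1 (edgeR adjusted p = 0.0683 and 0.0581).

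Cells other than Kupffer cells can bring class II transcripts, so marker lists were read in the same libraries. Beside each list stand the shares over all tested genes, 15.1% called lower and 15.3% higher. Of 9 tested B cell markers 4 were called lower and none of the others was called, with a median log2 change of -0.22. The list's 15 genes summed to 105 to 114 CPM in Trem2 KO and 132 to 135 CPM in WT libraries. Ighm, the IgM heavy chain, averaged 8.31 ± 0.66 CPM in Trem2 KO and 14.7 ± 1.02 CPM in WT (SD, n = 3 each), a log2 change of -0.82, and Igkc, Cd79b and Cd22 changed by -0.32, -0.32 and -0.20. Igkc and Cd79b were not called by DESeq2 (adjusted p = 0.127 and 0.0849). The edgeR call of Cd79b was also lost when any of Trem2 KO replicate 1 and WT replicates 1 and 2 was left out (adjusted p = 0.0699 to 0.127). That of Igkc was lost when any of Trem2 KO replicates 2 and 3 and WT replicates 1 and 2 was left out (adjusted p = 0.0652 to 0.108). The B cell receptor gene Cd79a was barely read, with 15 to 26 reads in Trem2 KO libraries and 14 to 22 in WT libraries, and was not called.

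Of 12 tested dendritic cell markers 2 were called higher and 3 lower, with a median of 0.17, and the list's 15 genes summed to 344 to 363 CPM in Trem2 KO and 399 to 410 CPM in WT libraries. Bst2, which interferon also induces in other cells, made up most of that sum and changed by -0.31. Clec10a changed by -0.27, Batf3 by -0.18, Dpp4 by 0.64 and Clec9a by 0.18, all called. The Kupffer cell gene Clec1b, with 36786 reads against 4082 for Clec9a, overlaps Clec9a on its strand. Clec9a was not called by DESeq2 (adjusted p = 0.128), and its edgeR call was lost when any of Trem2 KO replicates 2 and 3 and WT replicates 1 and 2 was left out (adjusted p = 0.0647 to 0.164). Batf3 lost its call without Trem2 KO replicate 3 (adjusted p = 0.0724) and Clec10a without WT replicate 2 (adjusted p = 0.0594). The receptor Flt3, which defines dendritic cells, was read 2 to 11 times per library and was below the filter, and Xcr1 averaged 0.792 ± 0.26 CPM in Trem2 KO and 0.703 ± 0.192 CPM in WT. No B cell or dendritic cell marker was at 0 in all libraries. The part of B cells and dendritic cells in the class II difference was not tested.

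Lists for other cell types were read in the same way. Of 15 resident Kupffer cell markers 14 were called lower, with a median of -0.20 and sums of 38972 to 39272 CPM in Trem2 KO and 45245 to 46344 CPM in WT libraries. The class II chains and Cd74 fell by more than that median, and Ctss by less. Of 11 recruited monocyte markers 6 were called higher and 1, Plac8, lower (median 0.35), with sums of 463 to 469 CPM in Trem2 KO and 348 to 357 CPM in WT libraries. Nr4a1, which is also an immediate early gene, made up most of that sum, with 302 ± 3.24 CPM in Trem2 KO and 203 ± 3 CPM in WT (SD, n = 3 each). The less abundant Ccr2 averaged 17 ± 0.431 CPM in Trem2 KO and 6.22 ± 0.532 CPM in WT. Cx3cr1 averaged 15.1 ± 1.19 CPM in Trem2 KO and 5.52 ± 0.576 CPM in WT. Their log2 changes were 1.45 and 1.46, both called, and 4 markers of this list were not called. Of 15 sinusoidal endothelial markers 12 were called higher and 2 lower (median 0.44, sums of 2064 to 2079 CPM in Trem2 KO and 2095 to 2113 CPM in WT). Cdh5, 1 of the 2 called lower, made up most of that sum, at 1129 ± 3.69 CPM in Trem2 KO and 1257 ± 5.38 CPM in WT. Stab2, called higher at 0.08, lost its call when any of Trem2 KO replicates 1 and 2 and WT replicates 1 and 3 was left out (edgeR adjusted p = 0.0518 to 0.112). Of 15 hepatocyte markers 4 were called higher and 7 lower (median -0.21, sums of 1560 to 1601 CPM in Trem2 KO and 1800 to 1859 CPM in WT). T and NK cell markers summed to 8.61 to 9.93 CPM in Trem2 KO and 7.21 to 9.26 CPM in WT libraries, which overlapped, and 1 of 4 tested, Il7r, was called, higher. Neutrophil marker sums overlapped too, at 184 to 194 CPM in Trem2 KO and 193 to 210 CPM in WT libraries, with 1 of 5 tested called higher (Lcn2) and 1 lower (Csf3r). Csf3r lost its call when any of Trem2 KO replicates 1 and 2 and WT replicate 3 was left out (edgeR adjusted p = 0.0806 to 0.166). Of 10 tested stellate cell markers 2 were called higher, Ecm1 and Hgf, and 8 were not called, with a median of -0.27. Their sum was 258 to 261 CPM in Trem2 KO and 211 to 219 CPM in WT libraries, of which Ecm1 alone averaged 200.2 ± 0.604 CPM in Trem2 KO and 160.5 ± 3.58 CPM in WT (SD, n = 3 each). The part of all these cells in the class II difference was not tested.

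Genes most like H2-Aa, H2-Ab1, H2-Eb1 and Cd74 across the 6 libraries were ranked by the root mean square difference of centred log2 CPM from the mean of those 4, among 8409 genes. The closest was Hsp90aa1, an HSP90 chaperone gene on chromosome 12, with a difference of 0.02. Those of the 4 genes themselves were 0.018 to 0.039. Each of the 4 is part of the mean it is measured against, which makes its difference smaller, so the values are not like for like. Hsp90aa1 averaged 295 ± 3.42 CPM in Trem2 KO and 495 ± 4.77 CPM in WT (SD, n = 3 each), a log2 change of -0.75. Next came Cacybp (0.042), the hepatocyte marker Serpina3k (0.048), Nrm (0.053) and Dnaja1 (0.058), with log2 changes of -0.72, -0.72, -0.72 and -0.83. Nrm lies on chromosome 17 and the others on chromosomes 1, 12 and 4. With 6 libraries in 2 groups, likeness on this measure is mostly a like difference between the groups.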

How the data were processed

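RNA-seq of sorted Kupffer cells was deposited by the authors as raw counts and FPKM per gene for 6 libraries. Tools named in the submitters' processing notes are DESeq2 1.16.1, featureCounts 1.5.0-p3 and HISAT2 2.0.5, and they name mm10 and GRCm38 as builds. The sources used here give neither the strand setting nor the treatment of reads that match several genes. The deposited FPKM equal count over length and over a constant, which was 0.989 to 1.02 times the library total.

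Groups and replicate numbers came from the sample titles. Counts were tested with edgeR 4.0.16 in R 4.3.3 (filterByExpr, TMM, robust quasi-likelihood fit, genotype as the only term), with Benjamini-Hochberg adjustment over 13776 genes and calls at an adjusted p under 0.05. Standard errors and 95% intervals were derived from the quasi-F statistic. The estimated biological coefficient of variation was 0.0378. A count of 3, the limit a count of 0 allows, equals 0.175 to 0.19 CPM, and covers counting error alone, because PCR copies cannot be recognised in these reads. Replicate numbers did not pair libraries (correlations of deviations -0.00787, 0.00313 and 0.0361), so no block was used.

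Members and gene lists were chosen with earlier results of these data known. Named are the members, Trem2, up to 5 called genes of each pathway list by size of change, called B cell and dendritic cell markers, abundant or low defining markers, genes between the class II genes, and the 5 most alike genes. Rfx5, Rfxap, Rfxank, Ctsl, Sppl2a, Cd79a, Plac8, Ccr2, Cx3cr1, Il7r, Lcn2, Flt3, Xcr1 and the genes below the filter were named after their values were seen. Some genes that the rule selects are left out of the text. Alternatives were DESeq2 1.42.0, limma-voom (limma 3.58.1), limma on log2(FPKM + 1) and log2(FPKM + 0.1), other scalings and filters, a biological coefficient of variation fixed at 0.2, a replicate block and leaving out each library. Promoters are RefSeq's (GRCm38.p6), and shared 50-base windows were counted in GENCODE transcripts.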

Additional observations from a re-analysis of the deposited data

How the results depend on the processing

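Over 18 alternatives the 9 genes called lower kept their direction, with H2-Aa at -0.81 to -0.77, H2-Ab1 at -0.84 to -0.78, H2-Eb1 at -0.79 to -0.74, Cd74 at -0.74 to -0.68, Ciita at -0.41 to -0.34, H2-DMa at -0.34 to -0.29, H2-DMb1 at -0.35 to -0.28, Ctss at -0.14 to -0.09 and H2-Ob at -1.22 to -0.48, while H2-DMb2 stayed uncalled at 0.03 to 0.29. With a biological coefficient of variation of 0.2 for every gene, edgeR called 4 class II presentation genes lower (H2-Aa, H2-Ab1, H2-Eb1 and H2-Ob) and lost Cd74 (adjusted p = 0.0837), Ciita (0.794), Ctss (1), H2-DMa and H2-DMb1 (0.944 each). It then called 0 pathway genes lower (1 at an unadjusted p under 0.05; 16 with DESeq2 and 15 with limma-voom at their own spread), 1 pathway gene higher, 0 of the 4 interval genes lower (0 at an unadjusted p under 0.05; 4 with DESeq2 and with limma-voom), and 103 genes lower and 268 higher over the whole table. Unfiltered log2(FPKM + 1) lost H2-Ob (adjusted p = 0.0549) and gave 3 pathway genes higher, 980 genes lower and 908 higher. The chromosome 17 median was -0.48 on log2(FPKM + 1), filtered or not, where H2-Ob becomes the middle gene. Total counts gave 13 pathway genes higher, and DESeq2 gave 1383 genes lower over the table. Leaving out 1 library at a time gave 5 to 10 pathway genes higher, 5 of them without Trem2 KO replicate 2, and a log2 difference of the H2-Ab1 to H2-Aa ratio of -0.0316 to 0.00696, above 0 without Trem2 KO replicate 3 (0.00696) and without WT replicate 1 (0.00122); the cause was not tested. With a replicate block, 9 class II presentation genes, 17 pathway genes and 2111 genes over the table were called lower, and no call of the class II presentation genes changed. Depth limits H2-Ob and H2-DMb2, at 28 to 170 reads per library, and leaves H2-Oa and H2-Eb2 untested.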
